A study of Mus musculus with 12 samples.

Results

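The potassium channel genes are described here as 1 group in aged 3xTgAD mouse brain, a transgenic model of Alzheimer's disease, with and without amitriptyline (AMI), a tricyclic antidepressant. Members were the genes whose symbol begins with Kcn, apart from Kcne2. They numbered 83 of the 18097 genes on the array, with 124 of its 25697 probes, and where a gene had several probes the brightest over the 12 arrays stood for it. Male 3xTgAD mice were 14 months old at the start and 18 months old at tissue collection. The treated mice drank water with amitriptyline-hydrochloride, 100 µg per g of body weight, for 4 months, and the vehicle mice drank plain water. Hippocampus and cortex were profiled on Illumina Mouse Ref-8 bead arrays, with 3 arrays per treatment and tissue, so that 4 groups of 3 made up the 12 arrays. Every animal carried the 3xTgAD genotype, no wild-type brain was analysed here, and the tissues were whole dissected regions. In such bulk RNA, fewer cells of a type and less RNA per cell cannot be told apart.

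Potassium channels set the resting potential of a neuron, repolarize its action potentials and pace its firing. Voltage-gated (Kv) channels are built from pore-forming subunits (Kcna to Kcnd, Kcnh, Kcnq) that assemble as tetramers. So-called silent subunits (Kcnf, Kcng, Kcns, Kcnv) join other Kv pores and alter them, while the cytosolic Kcnab and Kcnip proteins attach to Kcna and Kcnd pores. Inward rectifiers (Kcnj) and tandem-pore leak channels (Kcnk) hold the membrane near rest, and calcium- or sodium-gated channels (Kcnm, Kcnn, Kcnt) follow bursts of activity. In hippocampal and cortical pyramidal cells, Kcnd2 with Kcnip and Dpp proteins carries the dendritic A-type current. Tricyclic drugs block several of these channels at the protein, an action that an array of RNA does not measure.

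Each array was read as log2 signal, centred on its own mean over all probes and brought to a common spread (z normalization). A level of 0 is thus the mean of all probes on an array, 1 unit is 1 log2 step, and a fold change is a difference of such levels. Levels of different probes were not set against each other, because probes differ in how well they bind. Between 49.0% and 51.7% of all probes were detected on an array (detection p of 0.05 or less), and the highest correlation of an array with any other ran from r = 0.993 to r = 0.995. The hippocampal arrays were exported with BeadStudio and the cortical arrays with GenomeStudio in a separate run. Tissue and run therefore cannot be told apart, which bears on every tissue difference below. The hippocampal arrays also had the wider spread, with a log2 SD of 1.51 to 1.85 against 1.42 to 1.68 in cortex.

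A gene was called detected in a tissue when its probe passed the detection threshold on at least 3 of the 6 arrays. In the hippocampus 48 of the 83 members were detected, or 57.8%, beside 54.9% of all genes on the array. In the cortex 51 were detected, or 61.4%, beside 54.1% of all genes. Both shares lay close to those of all genes. Both tissues shared 47 members, and 31 members were detected in neither.

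Detection differed by subfamily. All 3 Kcnab genes, all 4 Kcnip genes and both sodium-gated or related genes (Kcnt1, Kcnu1) were detected in both tissues. Kcnu1, known as the pH-sensitive channel of sperm, had a detected probe on all 12 arrays, at a mean level of 0.11 ± 0.10 (SD, n = 6) in hippocampus and 0.18 ± 0.18 in cortex. Among the Kcnk leak channels 8 of 13 were detected in each tissue, and among the Kcnj rectifiers 6 of 12 in hippocampus and 7 of 12 in cortex. The silent subunits gave 5 of 9 in each tissue. At the other end stood Kcne, the single-pass accessory subunits, with 1 of 4 detected (Kcne1l), and Kcnd, with 1 of 3 (Kcnd2). A gene below the threshold here had no signal above the array's background at this probe, which does not show that it is silent in these cells.

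**Figure D1:**
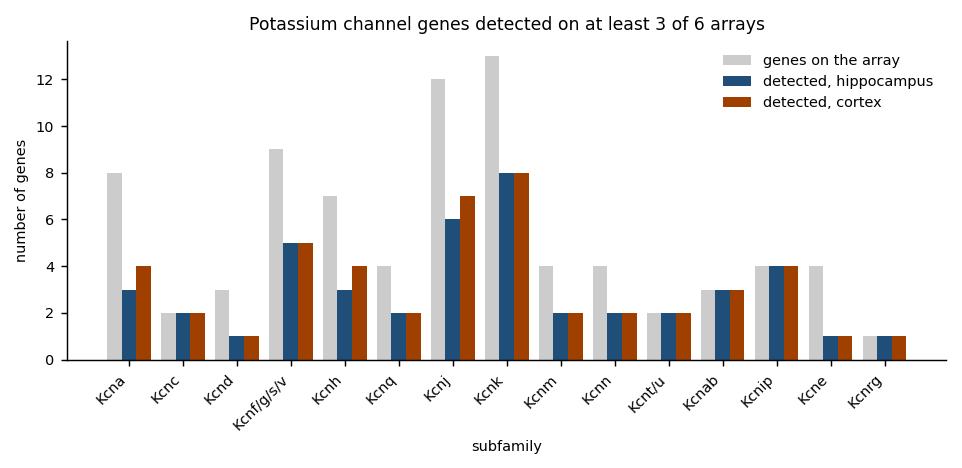
Number of potassium channel genes on the array (grey) and detected on at least 3 of 6 arrays in hippocampus (blue) and cortex (brown), by subfamily, for 80 of the 83 members. Kcnab and Kcnip were detected in full (3 of 3 and 4 of 4), and Kcne gave 1 of 4.

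Detection in a single tissue was seen for 5 members. Kcnj12, an inward rectifier that sets the resting potential, was detected on 6 of 6 cortical and 0 of 6 hippocampal arrays. Its level was -1.17, -0.94 and -0.82 (lowest, median and highest of 6 arrays) in hippocampus and -0.74, -0.64 and -0.49 in cortex, so the tissues did not overlap. Kcnh5, an ether-à-go-go channel, was detected on 0 hippocampal and 3 cortical arrays, and all 3 of those were from AMI-treated mice. Kcna3 and Kcnk5 were each detected on 1 hippocampal and 3 cortical arrays. Kcnk10, a mechanically gated leak channel, went the other way, with 6 hippocampal and 2 cortical arrays. None of the 5 entered the tissue test, which required detection in both tissues.

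The tissue comparison held 47 members. Of these, 5 were higher in hippocampus and 16 were higher in cortex (limma, adjusted p under 0.05 over all probes tested), and 26 were not called. Members called higher in hippocampus made up 10.6% of those tested, beside 23.8% of all genes, and members called lower made up 34.0%, beside 18.9%. The median difference, hippocampus minus cortex, was -0.03 on the log2 scale for the members and 0.02 for all 9464 genes tested. Centring each array on its median instead of z normalization, which leaves the wider hippocampal spread in place, moved the median of all genes to 0.23 and the member calls to 9 higher and 10 lower. Over all genes that setting changed the share of calls that were lower in hippocampus from 44.3% to 11.1%. Measured against the median of all genes, all 21 called members kept their side under z, quantile, median and neqc scaling. As raw values, 19 of the 21 kept their sign, and the exceptions under median centring were Kcnc4 at 0.01 and Kcnk1 at 0.13. Those 2 and Kcnf1, Kcnh2, Kcnip3 and Kcnk4 were not called under median centring, with adjusted p of 0.0577 (Kcnk4) to 0.973 (Kcnc4).

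**Figure D2:**
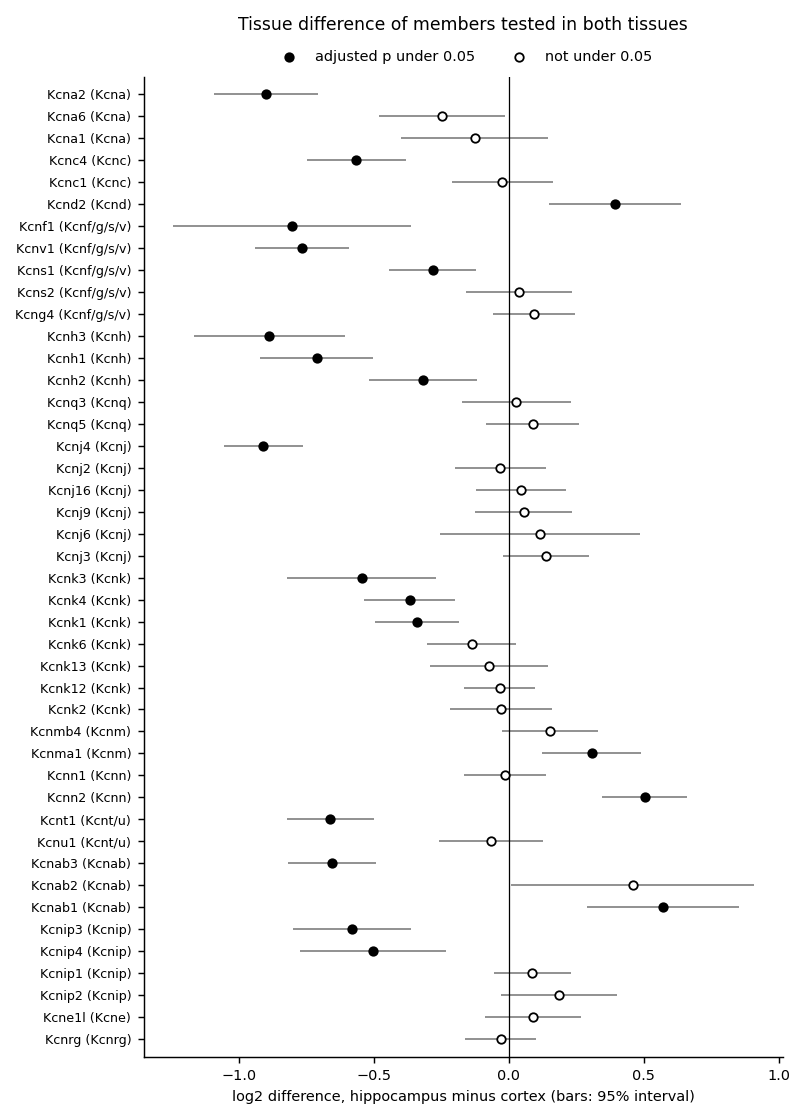
Log2 difference, hippocampus minus cortex, of 44 of the 47 members detected in both tissues, with its 95% interval from the limma fit. Filled points mark the 20 members shown that had an adjusted p under 0.05, of which 16 lie left of 0 and 4 right of it.

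The Kv pores with the largest differences were lower in hippocampus. Kcna2 encodes Kv1.2, a low-threshold channel of axons and their terminals. Its level was 1.06, 1.25 and 1.5 (lowest, median and highest of 6 arrays) in hippocampus and 2.08, 2.15 and 2.28 in cortex. The tissues did not overlap, and the difference was -0.90 ± 0.09 (SE, adjusted p = 7.55e-06). Its subfamily relatives Kcna1 and Kcna6 gave -0.13 and -0.25 and were not called, although Kcna6 was called lower with quantile normalization (-0.30, adjusted p = 0.0287) and neqc (-0.57, adjusted p = 0.0221). Kcnc4 encodes Kv3.4, a fast channel, and its level was 3.91, 4.04 and 4.29 in hippocampus and 4.34, 4.64 and 4.91 in cortex. Its difference of -0.56 ± 0.08 (adjusted p = 0.000184) was the call that median centring brought to 0.01. Its relative Kcnc1 gave -0.02 (95% interval -0.21 to 0.16).

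All 3 ether-à-go-go genes tested were lower in hippocampus. Kcnh3 (Kv12.2), a channel of forebrain neurons that opens below firing threshold, had a level of 0.86, 1.21 and 1.56 in hippocampus and 1.66, 2.01 and 2.64 in cortex. The tissues did not overlap, and the difference was -0.89 ± 0.13 (adjusted p = 0.00015). Kcnh1 (Kv10.1) had 1.80, 1.92 and 2.0 in hippocampus and 2.20, 2.64 and 2.96 in cortex, a difference of -0.71 ± 0.10 (adjusted p = 8.57e-05). Kcnh2, which encodes the ERG channel of the heart and brain, gave -0.32 ± 0.09 (adjusted p = 0.0142) at its brightest probe, whose arrays overlapped between the tissues. Another probe of Kcnh2, detected on all 12 arrays, gave -0.92 ± 0.08 (adjusted p = 4.05e-06), so the size of its difference depended on the probe.

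Silent subunits moved the same way where they moved. Kcnv1 (Kv8.1) had a level of 0.45, 0.69 and 0.85 in hippocampus and 1.22, 1.43 and 1.69 in cortex, without overlap, and differed by -0.77 ± 0.08 (adjusted p = 1.19e-05). Kcnf1 (Kv5.1) differed by -0.80 ± 0.20 (adjusted p = 0.00678). Its arrays spread widely, from 1.24 to 2.21 in hippocampus and from 2.14 to 3.14 in cortex, and overlapped. Kcns1 (Kv9.1) gave -0.28 ± 0.07 (adjusted p = 0.00847), while Kcns2 and Kcng4 gave 0.04 and 0.09 and were not called.

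The inward rectifier Kcnj4 (Kir2.3) had the largest difference of any member tested. Its level was 1.48, 1.65 and 1.77 in hippocampus and 2.43, 2.55 and 2.69 in cortex, and the difference was -0.91 ± 0.07 (adjusted p = 7.53e-07). It was -0.86 with vehicle arrays alone and -0.96 with AMI arrays alone. The G-protein-gated rectifiers Kcnj3, Kcnj6 and Kcnj9, which answer neurotransmitter receptors, gave 0.14, 0.12 and 0.05, and Kcnj2 and Kcnj16 gave -0.03 and 0.04. None of those 5 was called.

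The 7 leak channels tested all had differences below 0 under z normalization, and 3 of them were called. These were Kcnk3 (TASK-1, closed by acid) at -0.55 ± 0.13, Kcnk4 (TRAAK, opened by stretch) at -0.37 ± 0.08 and Kcnk1 (TWIK-1) at -0.34 ± 0.07. Kcnk1 had a level of 3.14, 3.33 and 3.47 in hippocampus and 3.47, 3.67 and 3.77 in cortex. Those arrays barely separated, and its sign turned under median centring. The signs of Kcnk2 and Kcnk13, not called, turned there too, at 0.18 and 0.08, where the median of all genes was 0.23. Kcnk6 was called lower only with quantile normalization (-0.20, adjusted p = 0.0247) and neqc (-0.31, adjusted p = 0.018). Its other detected probe gave 0.08 under z normalization. Kcnt1 (Slack), the sodium-gated channel, gave -0.38, -0.17 and -0.02 in hippocampus and 0.29, 0.48 and 0.67 in cortex, without overlap. Its difference was -0.66 ± 0.07 (adjusted p = 1.94e-05).

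Among the members higher in hippocampus were 2 pores gated by calcium. Kcnn2 (SK2), a calcium-gated channel of the afterhyperpolarization that follows spikes, had -0.20, -0.03 and 0.16 in hippocampus and -0.65, -0.52 and -0.32 in cortex. The tissues did not overlap, with a difference of 0.50 ± 0.07 (adjusted p = 0.000138). Kcnma1, the pore of the large-conductance BK channel, gave 0.31 ± 0.09 (adjusted p = 0.0113), with overlapping arrays, and its neuronal β subunit Kcnmb4 gave 0.15 and was not called, except under median centring (0.45, adjusted p = 0.0437). The Kv7 pores Kcnq3 and Kcnq5 gave 0.03 (95% interval -0.18 to 0.23) and 0.09 and were not called.

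**Figure D3:**
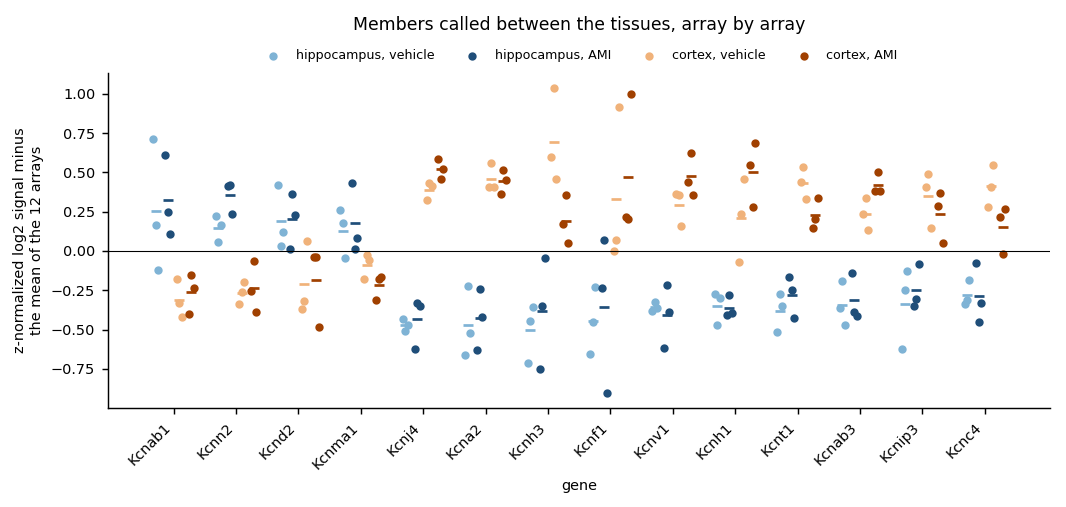
Level on each array (z-normalized log2 signal) of 14 members named for their tissue difference, minus that gene's mean over the 12 arrays, with short lines at group means of 3 arrays. Light and dark blue are hippocampus with vehicle and AMI, and light and dark brown are cortex with vehicle and AMI. From Kcnj4 rightward the blue points lie lower, while Kcnf1 shows the widest spread.

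The auxiliary subunits split between the tissues. Kcnab1 (Kvβ1), which speeds inactivation of Kcna channels, was higher in hippocampus, at 3.24, 3.57 and 4.07 against 2.95, 3.08 and 3.21 (difference 0.57 ± 0.13, adjusted p = 0.00344). Kcnab3 (Kvβ3) was lower, at 0.03, 0.13 and 0.36 against 0.64, 0.86 and 1.01 (difference -0.66 ± 0.08, adjusted p = 2.39e-05). Neither gene's arrays overlapped between tissues. Kcnab2 gave 0.46 with an interval of 0.01 to 0.91 and missed the threshold, with an adjusted p of 0.0937. That held for z normalization alone, since Kcnab2 was called higher in hippocampus with quantile normalization (0.64, adjusted p = 0.000774), median centring (1.15, adjusted p = 8.28e-06) and neqc (0.65, adjusted p = 0.00137).

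The A-type channel complex was uneven as well. Kcnd2 (Kv4.2), its pore, was higher in hippocampus, at 1.09, 1.25 and 1.5 against 0.60, 0.90 and 1.14 (difference 0.39 ± 0.11, adjusted p = 0.0132), with some overlap. Its calcium-binding partners Kcnip3 and Kcnip4 were lower in hippocampus, by -0.58 ± 0.10 (adjusted p = 0.000587) and -0.50 ± 0.13 (adjusted p = 0.00591). Kcnip1 and Kcnip2 gave 0.09 and 0.19 and were not called. Of the 21 other genes listed for their part in these channels' assembly, anchoring or currents, 17 were on the array and 12 were tested between tissues. Among them 4 were higher and 2 were lower in hippocampus, beside 23.8% and 18.9% of all genes. The membrane partners of Kcnd2 stood on opposite sides, with Dpp6 at 0.36 ± 0.08 (adjusted p = 0.00387) and Dpp10 at -1.72 ± 0.10 (adjusted p = 8.52e-08). Dpp10 went from 3.29 ± 0.19 (SD, n = 6) in cortex to 1.57 ± 0.16 in hippocampus. The other calls were Hcn2, a pacemaker channel (0.79), Abcc8, the sulfonylurea receptor of ATP-gated channels (0.58), Ank3, which anchors Kcnq channels at the axon initial segment (0.33), and Cntnap2, which clusters Kcna channels beside nodes (-0.39).

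Within each treatment all 21 called members kept their direction. With vehicle arrays alone 3 members were called higher (6.38%) and 13 lower (27.7%) in hippocampus, beside 11.7% and 8.96% of all genes. With AMI arrays alone there were 4 (8.51%) and 12 (25.5%), beside 14.6% and 11.3%. Kcnd2, Kcns1 and Kcnh2 were called in neither set of 6 arrays. Kcnma1, Kcnab1 and Kcnip4 were called with AMI arrays only, and Kcnk1 and Kcnk3 with vehicle arrays only. Markers of other cells also differed between the tissues. All 4 striatal markers tested were lower in hippocampus, from -0.64 (Drd2) to -2.49 (Ppp1r1b), and their summed signal ran from 707 to 1530 in hippocampus against 2992 to 4495 in cortex. All 6 microglial markers were higher in hippocampus (median 0.46), and 4 of 6 oligodendrocyte markers were lower (median -0.42). Most markers of the labelled tissues followed the labels. C1ql2, Fibcd1 and Prox1 were higher in hippocampus by 3.22, 2.75 and 1.17, and Tbr1 was lower in hippocampus, with a difference of -1.87. Fezf2, listed as a cortical marker, went against its list, at 0.81. The part of cell composition in the channel differences was not tested.

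Several members had more than 1 detected probe, and these did not always give the same tissue difference. The oligonucleotides are shown because the call of Kcnab1 depends on which one is read. The first 30 of each probe's 50 bases are printed 5′ to 3′, and positions are those of the array's annotation, which names no genome build.
Kcnab1, transcript base 3055, chr3:65181951-65182000: ctagctagcctccagcaggcaacttgggag
Kcnab1, transcript base 2441: cagaatctgagatacacttagctctgcctc
Kcnab1, transcript base 277: ctggggaccttcacccctcagcatcacatt

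The Kcnab1 probes toward the transcript's 3′ end gave 0.57 and 0.44 and were both called. The probe near its 5′ end gave -0.02 (adjusted p = 0.858 by limma). That probe was much dimmer, with a mean signal of 120 against 1571 and 1188, although detected on all 6 arrays of each tissue. Whether its low signal or its position lay behind the smaller difference was not tested. Kcnip2, Kcnc1 and Kcnk6 also had detected probes on both sides of 0, with no probe of theirs called under z normalization. The Kcnip2 probes gave 0.19, -0.16 and -0.08, and Kcnc1's gave -0.02 and 0.01. The Kcnip2 probes below 0 start at chr19:45871607 and chr19:45871609, so they overlap almost wholly and are not separate evidence. Their mean signals were 92.4 and 91.6 against 243 for the brightest, and they were detected on 3 and 4 of the 6 hippocampal arrays.

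The stretch of 250 bases before the transcription start was read for the 61 members that matched a RefSeq promoter by symbol (build GRCm38.p6). Such stretches are shown for a pair of genes lower in hippocampus (Kcnj4, Kcna2) and a pair higher (Kcnd2, Kcnma1), each with 1 listed start, so that their base composition can be compared. Capitals mark the GC box GGGCGG, searched on both strands.
Kcnj4, chr15:79505242-79505491, minus strand: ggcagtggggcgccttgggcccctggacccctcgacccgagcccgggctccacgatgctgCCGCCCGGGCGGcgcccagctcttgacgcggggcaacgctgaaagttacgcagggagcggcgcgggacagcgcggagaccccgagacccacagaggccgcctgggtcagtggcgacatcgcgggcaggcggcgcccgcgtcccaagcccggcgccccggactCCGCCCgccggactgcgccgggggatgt
Kcna2, chr3:107101317-107101566, plus strand: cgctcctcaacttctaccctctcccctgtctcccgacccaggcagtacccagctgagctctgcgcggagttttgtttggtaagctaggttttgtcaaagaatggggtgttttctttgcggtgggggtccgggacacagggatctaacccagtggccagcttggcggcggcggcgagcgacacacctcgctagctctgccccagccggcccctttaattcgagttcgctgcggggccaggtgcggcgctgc
Kcnd2, chr6:21215096-21215345, plus strand: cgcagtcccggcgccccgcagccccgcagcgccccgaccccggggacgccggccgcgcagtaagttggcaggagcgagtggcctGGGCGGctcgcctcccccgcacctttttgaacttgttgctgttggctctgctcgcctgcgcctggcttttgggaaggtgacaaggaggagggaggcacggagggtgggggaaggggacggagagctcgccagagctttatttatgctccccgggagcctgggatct
Kcnma1, chr14:24004206-24004455, minus strand: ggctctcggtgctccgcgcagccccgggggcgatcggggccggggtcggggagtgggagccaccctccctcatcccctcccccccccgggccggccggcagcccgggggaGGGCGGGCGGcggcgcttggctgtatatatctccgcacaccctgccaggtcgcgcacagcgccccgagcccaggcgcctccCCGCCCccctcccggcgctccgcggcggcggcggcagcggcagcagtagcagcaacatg

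The box was found 3 times before Kcnj4 and 3 times before Kcnma1, with overlapping matches counted, 1 time before Kcnd2 and not before Kcna2, so its letters did not follow the direction of the difference. GC content was 77.2%, 62.4%, 68.8% and 79.2% in that order. Over the members with a promoter the median GC content was 60.8%, against 52.0% over all 27025 genes with one, taking 1 start per gene. Those 27025, called all genes in this paragraph, were not limited to genes on the array or detected here. They were not matched to the members in kind of gene. The box stood in 31 of the 61 (50.8%), beside 32.7% of all genes, and TATAAA on either strand in 1 of 61 (1.64%), beside 12.9%. The E-box CANNTG was about as common in both, at 67.2% and 66.2%. Among members lower in hippocampus 7 of 11 held the GC box, and among those higher 3 of 3. These counts describe letters in the window and are not tests of binding.

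AMI was compared with vehicle within each tissue, to ask whether long dosing shifted channel RNA. In the hippocampus no member reached an adjusted p under 0.05 (limma), and none of the 48 tested had an unadjusted p under 0.05, where 2.47% of all genes did. The median change was 0.02 for the members and 0.01 for all genes, with 25 members above 0 and 23 below. The 95% intervals of 44 of the 48 lay wholly inside a 1.5-fold change in either direction. The exceptions were Kcnab2, Kcnf1, Kcnj6 and Kcnk13, whose intervals were wider.

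Kcnn2 (SK2) had the smallest p in the hippocampus. Its vehicle arrays gave -0.03, -0.20 and -0.09 and its AMI arrays 0.16, 0.16 and -0.02. The groups did not overlap, and it was the only such member of 48 (2.08%), beside 8.01% of all genes. Its change was 0.21 ± 0.10 (SE, 95% interval -0.01 to 0.43, adjusted p = 0.9996 by limma). Kcnk13 (THIK-1), a leak channel of microglia, gave 0.76, 1.1 and 0.49 with vehicle and 0.32, 0.68 and 0.47 with AMI. Those groups overlapped, at a change of -0.29 ± 0.16. The other members with the smallest p were Kcnk3 (0.18), Kcne1l (0.20) and Kcnk6 (0.17), and Kcnh3 gave 0.12 ± 0.18.

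Arrays with the same replicate number deviated together in the hippocampus. With that number as a block, 3 members passed an unadjusted p of 0.05, namely Kcnk13 (-0.29), Kcnip2 (0.21) and Kcnn2 (0.21). That is 6.25% of the members, beside 8.61% of all genes in the blocked limma fit, and none passed after adjustment. Markers of other cells also stood out in these arrays. The oligodendrocyte genes Cnp, Mag and Mog had changes of -0.57, -0.46 and -0.56 and an unadjusted p under 0.05, although none passed after adjustment. The summed choroid plexus signal ran from 4199 to 63218 with vehicle and from 2543 to 7093 with AMI. Their part in the channel values was not tested.

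In the cortex no member of 51 reached an adjusted p under 0.05 either (limma). At an unadjusted p under 0.05 there were 3 members, or 5.88%, beside 5.3% of all genes. They include Kcnh5, which passed the detection filter through its AMI arrays alone. The median change was 0.03 for the members and 0.01 for all genes. The 95% intervals of 43 members lay inside a 1.5-fold change, and those of 8 reached beyond it, Kcna1, Kcnab2, Kcnf1, Kcnh1, Kcnh3, Kcnip4 and Kcnk3 among them.

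Kcnh3 had the most negative change of the members tested. Its vehicle arrays gave 2.21, 2.64 and 2.06 and its AMI arrays 1.78, 1.96 and 1.66, all AMI values lying below all vehicle values. The change was -0.50 ± 0.16 (95% interval -0.87 to -0.14, adjusted p = 0.756 by limma). Kcna1 (Kv1.1), an axonal channel whose loss causes seizures, had the most positive change. It gave -0.43, -0.86 and -0.52 with vehicle and -0.06, -0.13 and -0.32 with AMI, a change of 0.43 ± 0.13 (adjusted p = 0.756 by limma), with no overlap. Kcnh5 (Kv10.2) gave -0.91, -1.04 and -0.94 with vehicle and -0.63, -0.58 and -0.72 with AMI, a change of 0.32 ± 0.09 (adjusted p = 0.756 by limma). Its probe was detected on the 3 AMI arrays alone, so its vehicle values lay within the array background and it entered the test through the AMI arrays. Kcnc4 and Kcnt1 followed, at -0.26 and -0.20, and missed the unadjusted threshold.

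The 3 AMI arrays did not overlap the 3 vehicle arrays for 8 members of 51 (15.7%), beside 11% of all genes. Kcna1, Kcnab3, Kcnh5, Kcnip2 and Kcnj4 lay above, and Kcnc4, Kcnh3 and Kcnn1 below. Kcnh5 is counted here although it passed the detection filter through its AMI arrays alone. Among the 13 assembly and anchoring partners tested, Ank3 alone had an unadjusted p under 0.05 in the cortex, at -0.23, and none did in the hippocampus. The striatal markers Rgs9 and Drd2 gave -0.63 and -0.54 in the cortex (adjusted p = 0.756 for both by limma), each under the unadjusted threshold, and the summed striatal signal ran from 3772 to 4495 with vehicle and from 2992 to 4037 with AMI. Its part in the Kcnh3 and Kcnc4 values was not tested.

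**Figure D4:**
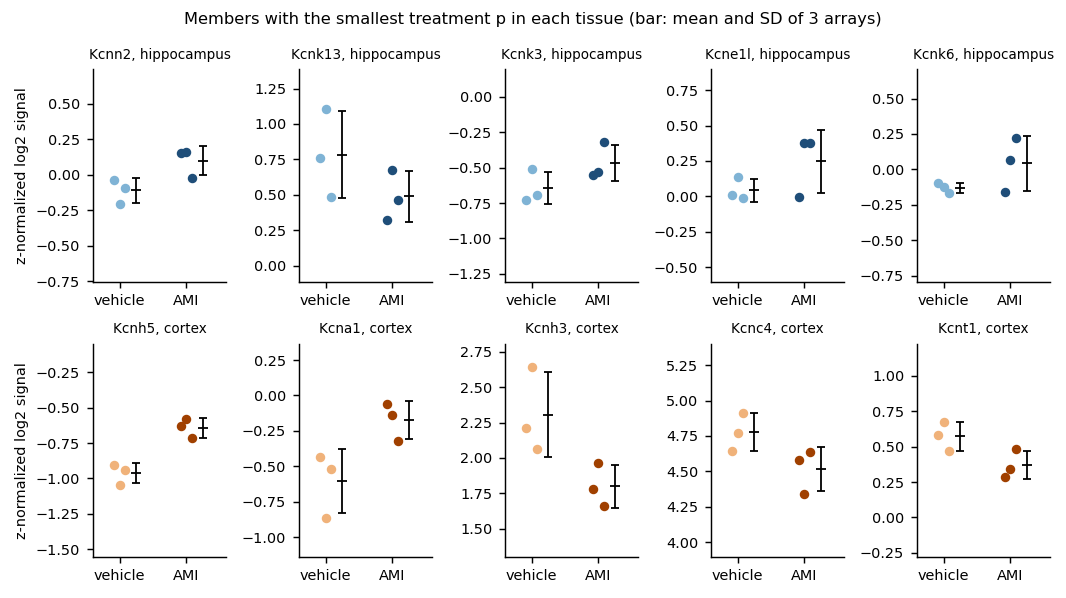
Level on each array (z-normalized log2 signal) of the 5 members with the smallest treatment p in hippocampus (top, blue) and cortex (bottom, brown), vehicle left and AMI right in each panel, with the mean and SD of 3 arrays beside the points. Every panel spans 1.5 log2 units, and Kcnn2 in the top row and Kcnh5, Kcna1, Kcnh3 and Kcnc4 in the bottom row show groups without overlap.

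Whether AMI acted differently in the tissues was tested as an interaction. No member passed after adjustment, and 1 of 47 had an unadjusted p under 0.05 (2.13%), beside 3.11% of all genes. That member was Kcnh3, whose change was 0.12 in hippocampus and -0.50 in cortex, a difference of 0.63 ± 0.26 (adjusted p = 0.9999 by limma). Its tissue difference was accordingly -1.20 with vehicle and -0.57 with AMI.

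**Figure D5:**
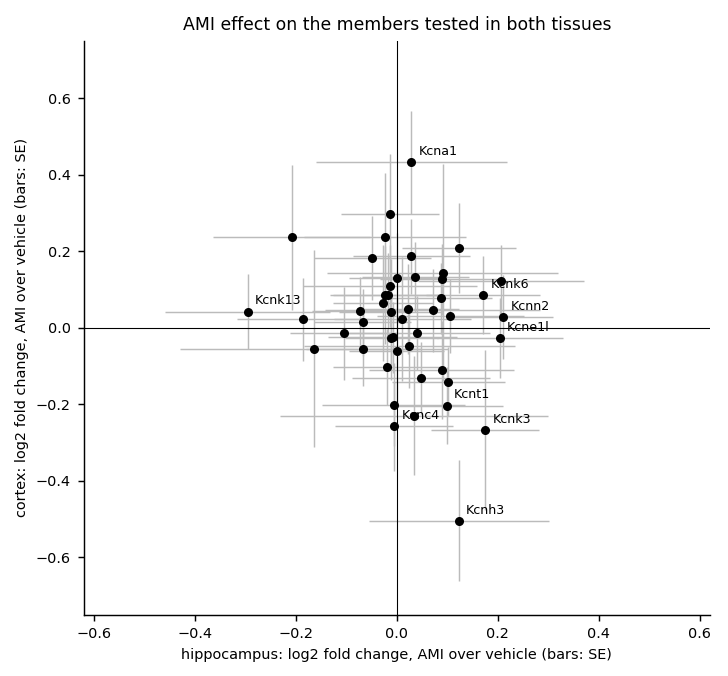
Log2 fold change, AMI over vehicle, of the 47 members tested in both tissues, hippocampus on the horizontal and cortex on the vertical axis, with standard errors from the limma fits as grey bars. Most points lie near 0 on both axes, and Kcna1 (0.43) and Kcnh3 (-0.50) stand farthest out, along the cortical axis.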

How the data were processed

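The members and the gene lists were chosen with earlier results of these data known. The authors deposited, in 1 table per tissue, the signal intensity of every probe without normalization, together with its detection p-value. The labels name BeadStudio 3.4 (hippocampus) and GenomeStudio 1.1.1 (cortex), and 0 value columns were left unmapped. Signals were log2-transformed, z-normalized per array and put back on a log2 scale with the average array SD (1.60), following the study's z normalization. Probes with a detection p no higher than 0.05 in 3 or more of the 6 arrays of a tissue, or of each tissue in tissue and interaction fits, were fitted with limma 3.58.1 in R 4.3.3, with Benjamini-Hochberg adjustment over all of them (13163, 12944 and 12430 probes in hippocampus, cortex and both). The code was tested on simulated data. Background percentages count 1 probe per gene. Array number limits precision: 3 arrays a group, each described only as a replicate, and an exact permutation test of 3 against 3 could not go below p = 0.1.

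Genes were named by rule: up to 10 per direction with the largest tissue difference, the 5 smallest treatment p in each tissue with Kcnh3, the brightest probe of each subfamily, genes detected in 1 tissue, and genes whose detected probes lay on both sides of 0 or differed in treatment call. Same-numbered AMI and vehicle arrays deviated together in hippocampus (r = 0.61, 0.30 and 0.29), by the data and not the labels. The highest r of the same AMI arrays with a vehicle array of another number was -0.33, 0.17 and 0.28. The main treatment fits held no block in either tissue, and the number entered only the alternative fit named the replicate block. In cortex the same-numbered arrays gave r = -0.06, 0.33 and 0.33. Promoters came from RefSeq (GRCm38.p6). Some members are counted in the totals but not reported individually here.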

Additional observations from a re-analysis of the deposited data

How the results depend on the processing

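No member passed an adjusted p of 0.05 for AMI in either tissue or for the interaction under any alternative tried. Between tissues, 16 members were lower and 5 higher in hippocampus. Median centring gave 10 and 9, and 3 were higher under detection p of 0.01 on all 6 arrays and with vehicle arrays only. Without 1 array at a time these counts ran from 16 to 17 and from 5 to 7. At an unadjusted p of 0.05 the cortical treatment count of 3 became 6 (11.8%) with quantile normalization, neqc and the replicate block. Of all genes 6.02%, 5.87% and 7.52% passed there. It became 5 with no filter (6.02%, beside 5.49% of all genes) and in 1 fit for both tissues (9.8%, beside 5.81%). The strict filter gave 1 (2.94%, beside 4.97%). Without 1 array it ran from 2 (4.26%, without AMI array 1, beside 2.69%) to 7 (14.0%, without vehicle array 3, beside 13.9%). The hippocampal count of 0 became 1 with no filter (1.2%, beside 2.6% of all genes) and 3 with the replicate block (6.25%, beside 8.61%). Without 1 array it ran from 0 to 4 (8.33%, without AMI array 1, beside 7.36%). The interaction count of 1 became 4 (8.51%) with quantile normalization and neqc, beside 4.90% and 4.85% of all genes. It became 3 with no filter (3.61%, beside 3.3%) and 0 with median centring (beside 0.518%). Without 1 array it ran from 0 to 4. The 4 (8.51%) came without cortical vehicle array 3 (beside 7.55%) and without cortical AMI array 2 (beside 4.38%). The methods' t-test gave 0 members in hippocampus, beside 3.75% of all genes, and 3 in cortex (5.88%, beside 5.82%), and 0 after Benjamini-Hochberg. Its cortical members were Kcnh5, Kcna1 and Kcnn1. Median centring also gave 3 in cortex (5.88%, beside 2.46%), namely Kcnh5, Kcna1 and Kcnh1. Kcnh3 thus did not pass the unadjusted threshold in cortex under either. A random block changed no tissue call (consensus correlation -0.02). It took hippocampal and cortical arrays of the same treatment and number as the same mouse, which the labels do not state. With that correlation the fit was close to the unblocked one, so it cannot show what true pairing by mouse would change. Detected members ran from 47 to 51 in cortex without 1 array and stayed 48 in hippocampus.

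Some signs turned. Kcnc1 (-0.02) became 0.00547 with quantile normalization, 0.00526 with neqc, 0.40 with median centring and 0.0306 with vehicle arrays, and ran from -0.0554 to 0.0326 without 1 array. With median centring the called differences of Kcnc4 (-0.56) and Kcnk1 (-0.34) became 0.00846 and 0.13, where the median of all genes moved to 0.23. Kcnip2 became -0.0166 as the mean of its probes, and Kcnh3 in hippocampus ran from -0.0441 to 0.306 without 1 array. Kcnip2's tissue difference passed the threshold without hippocampal vehicle array 1 (0.25, adjusted p = 0.0487) or AMI array 1 (0.26, adjusted p = 0.0324). The causes were not tested.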
